A study of Mus musculus with 8 samples.

Results

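The Fos and Jun family subunits are the leucine zipper proteins that make up the transcription factor AP-1, and their transcripts were followed here in mouse marrow stromal cells carrying a cFos or a luciferase retrovirus. The 10 genes Fos, Fosb, Fosl1, Fosl2, Jun, Junb, Jund, Jdp2, Batf and Batf3 were taken by name, and all 10 were found among 23500 genes listed. The cFos arm consisted of p53 knockout bone marrow-derived mesenchymal stem cells given a retrovirus with a cFos cDNA, and the control arm (Luc) of the same cells given a luciferase (Luc) retrovirus. Both arms are labelled p53 knockout, and no group is labelled p53 wild type. Each arm held 4 libraries, 1 from each of the clones 2, 4, 8 and 12 (each a single clone), all below passage 20, and no clone was sequenced more than once per virus. A name such as cFos 8 stands for the cFos library of clone 8.

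AP-1 is a dimer: the Fos proteins (Fos, FosB and the Fos-related antigens encoded by Fosl1 and Fosl2) do not form stable pairs with themselves and bind DNA together with a Jun protein, whereas Jun proteins can also pair with each other. Jdp2, Batf and Batf3 encode small zipper proteins without a strong activation domain, which pair with Jun proteins and can act as inhibitors of AP-1. Fos, Fosb, Jun and Junb are early-response genes, switched on within minutes by serum and growth factors. In bone, forced expression of Fos in mice gives osteosarcoma, with cartilage tumours in chimaeras, and mice without Fos lack osteoclasts.

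Values are FPKM, the fragments of a transcript divided by its length and by the library's mapped fragments, summed over the transcript entries of a gene, and a group value is the mean ± SD over the 4 clones. Aligned sequence came to 6.93 to 9.14 gigabases per library, and 10970 to 11121 genes per library reached 1 FPKM. The stromal markers Col1a1 and Prrx1 were abundant, at 1531 ± 281 and 77.4 ± 30.0 FPKM in cFos and 1384 ± 694 and 102 ± 11.1 in Luc, while other markers of the list of 8 were low: Lepr was at most 0.816 in cFos and 1.39 in Luc, and Eng at most 2.12 in cFos and 1.28 in Luc. Thy1 was at 15.9 and 23.8 FPKM in cFos 8 and cFos 12 and at 21.9 in Luc 12, and at most 0.398 in the other cFos and 0.672 in the other Luc libraries. Cxcl12, a chemokine of marrow stroma, fell to 359 ± 202 in cFos, against 3364 ± 2680 in Luc (limma adjusted p = 0.0154, and 0.0558 without cFos 2), the 1 of 6 tested stromal markers that passed, and its part in the results below was not tested. Of 6 blood markers found, 5 stayed under 1 FPKM in all libraries, and their summed level was 1.37 to 2.32 in cFos and 0.918 to 2.697 in Luc. The endothelial markers summed to 0.0379 to 0.104 in cFos and 0.0629 to 0.189 in Luc, with Cdh5 listed at 0 throughout. Trp53 was listed at 6.58 ± 0.246 in cFos and 7.67 ± 1.30 in Luc, a total over the gene that does not check the knockout, since the deleted part was not examined. Sox9 was listed at 15.4 ± 0.635 in cFos and 7.94 ± 1.79 in Luc. These are bulk libraries, in which fewer cells expressing a gene and less RNA per cell cannot be told apart.

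Beside the transduced gene, 1 other tested subunit gene, Fosl1, rose, though not when the clone was held as a block. Fosl2 was higher in the cFos library of every clone, while Fosb, Jun and Jund were lower in every clone, and Junb and Jdp2 had no shared direction. Of the 8 members expressed enough to be tested, which all reached 1 FPKM in all 8 libraries, 2 rose and 0 fell at a limma adjusted p under 0.05, against a background of 5.55% of 11162 tested genes called in either direction (2.92% higher and 2.62% lower). At an unadjusted limma p under 0.05, 3 of the 8 were higher and 2 lower, where 9.06% of all tested genes were higher and 11.1% lower. A model that also holds the clone as a block called 4 of the 8, where it called 8.79% of all genes: Fos and Fosl2 rose (4.51% of all genes) and Fosb and Jun fell (4.28%). Without both libraries of clone 8, a choice made after the values were seen, Fos alone rose and no member fell (2.05% of all genes rose), and the blocked model then called 2 higher, Fos and Fosl2 (3.95%), and 1 lower, Fosb (3.85%). By direction alone, 3 of the 8 were higher and 3 lower in all 4 clones, where 15.3% of all genes were higher and 20.9% lower throughout, 36.2% in all. The 4 cFos values and the 4 Luc values did not overlap for Fos and Fosl1 (cFos above) and Jund (cFos below), 3 of 8 members against 13.7% of all genes (5.86% above and 7.8% below). The median log2 fold change of the 8 members was -0.13, against -0.06 over all tested genes, and the median size without regard to sign was 0.67 against 0.21. Fos, the gene carried by the virus, is included in these medians and in each count of members that rose, were higher or did not overlap. These figures therefore do not describe the other members alone.

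**Figure D1:**
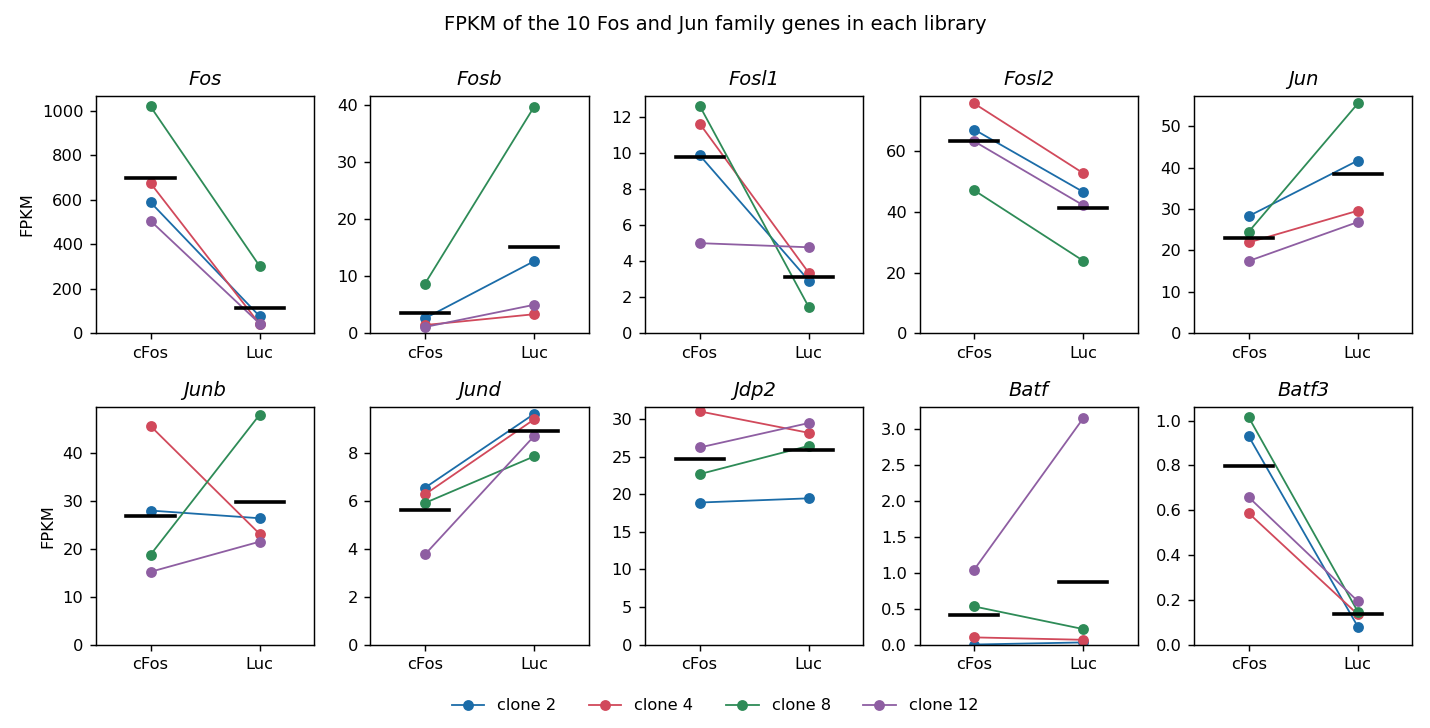
FPKM (vertical axes, from 0, a scale of its own for each gene) of the 10 genes in the cFos and Luc libraries; each coloured line joins the libraries of 1 clone, and black bars are arm means. Lines for Fos, Fosl1, Fosl2 and Batf3 are higher in cFos in every clone, those for Fosb, Jun and Jund lower in every clone, and those for Junb cross.

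Fos, which encodes the transduced subunit, was at 589, 675, 1019 and 505 FPKM in cFos clones 2, 4, 8 and 12 and at 76.2, 41.1, 302 and 43.5 FPKM in the Luc libraries. Every cFos library lay above every Luc library, and clone 8 had the highest value in both arms. The limma log2 fold change was 3.06 (SE 0.58, adjusted p = 0.0184), and the adjusted p was 0.00619 in the blocked model. The fold within a clone was smallest in clone 8, at 3.38, and largest in clone 4, at 16.4. The adjusted p was 0.0580, 0.0561, 0.0539 and 0.0510 without cFos 2, cFos 4, cFos 8 or Luc 2, and 0.0540 when low genes were not filtered out. Fos is listed as a single entry of 2093 bases (chromosome 12, 86814851 to 86818219, mm9), and the share of its reads that comes from the virus was not tested.

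Fosb encodes the closest relative of Fos and, like it, responds early to serum. It was at 2.63, 1.45, 8.72 and 1.10 FPKM in cFos clones 2, 4, 8 and 12 and at 12.7, 3.34, 39.8 and 4.999 FPKM in the Luc libraries. The arms overlapped, since Luc 4 and Luc 12 lay under cFos 8, but within each clone the cFos library was the lower. The log2 fold change was -1.74 (SE 0.78, limma adjusted p = 0.251), and the gene fell in the blocked model (SE 0.22, adjusted p = 0.00820). Without Luc 8 the log2 fold change in the model of arm alone was -1.08. The Luc value was 4.81, 2.31, 4.56 and 4.54 times the cFos value in clones 2, 4, 8 and 12. The authors' confidence limits for the 2 arms were apart in all 4 clones; these limits describe the estimate within 1 library and not the spread between cultures. Without both libraries of clone 8 the blocked model still gave a fall (log2 -1.61, adjusted p = 0.0191). Fosb has 1 entry of 3776 bases (chromosome 7, 19888045 to 19895394), so its short splice form, which lacks the carboxy-terminal activation domain, is not separated.

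Fosl1 encodes a Fos-related antigen that is itself a known target of AP-1 in fibroblasts. It was at 9.87, 11.6, 12.6 and 4.99 FPKM in cFos clones 2, 4, 8 and 12 and at 2.92, 3.35, 1.46 and 4.76 FPKM in the Luc libraries. The arms did not overlap, but clone 12 barely differed. The gene rose by 1.52 on the log2 scale (SE 0.35, limma adjusted p = 0.0417), and the blocked adjusted p was 0.0663. The fold varied with the clone, at 3.38 for clone 2, 3.47 for clone 4, 8.66 for clone 8 and 1.05 for clone 12. In clone 12 the authors' limits overlapped, at 4.34 to 5.65 FPKM in cFos and 4.16 to 5.37 in Luc. Leaving out any 1 of cFos 2, cFos 4, cFos 8, Luc 2, Luc 4 or Luc 8 ended the call, with adjusted p up to 0.121, as did the absence of a filter (0.0937) and of clone 8 (0.123). The entry lies on chromosome 19, 5447698 to 5455938.

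Fosl2 encodes the other Fos-related antigen, a regulator of osteoblast and chondrocyte differentiation. It was at 67.2, 75.8, 47.2 and 63.4 FPKM in cFos clones 2, 4, 8 and 12 and at 46.6, 52.8, 23.9 and 42.2 FPKM in the Luc libraries. Clone 8 was lowest in both arms, and its cFos value fell among the Luc values of the other clones. The log2 fold change was 0.65 (SE 0.25, limma adjusted p = 0.192), and the gene rose in the blocked model (SE 0.12, adjusted p = 0.0269; 0.0476 without both libraries of clone 8). Without Luc 8 the log2 fold change in the model of arm alone was 0.41. The fold was 1.44 in both clone 2 and clone 4, 1.97 in clone 8 and between these values in clone 12, and the authors' limits were apart in all 4. Fosl2 lies on chromosome 5, 32438845 to 32460212.

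Jun encodes the prototype partner of Fos. It was at 28.3, 21.9, 24.5 and 17.5 FPKM in cFos clones 2, 4, 8 and 12 and at 41.7, 29.6, 55.5 and 26.9 FPKM in the Luc libraries. Each cFos library was below the Luc library of its clone, and cFos 2 lay above Luc 12. The log2 fold change was -0.69 (SE 0.24, limma adjusted p = 0.153), and the gene fell in the blocked model (SE 0.15, adjusted p = 0.0403). That blocked call ended without both libraries of clone 8 (0.0572), where the Luc value was 2.26 times the cFos value, against 1.35 to 1.54 times in the other clones. Jun is intronless and lies on chromosome 4, 94715727 to 94718913.

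Junb and Jund encode the other Jun proteins, which activate transcription less strongly than Jun in many settings. Junb was at 27.9, 45.5, 18.7 and 15.1 FPKM in cFos clones 2, 4, 8 and 12 and at 26.3, 23.0, 47.9 and 21.4 FPKM in the Luc libraries. It was 1.98-fold higher in cFos in clone 4, and in clone 8 the Luc value was 2.56 times the cFos value, so that the clones moved in opposite directions by amounts beyond the authors' confidence limits. Its log2 fold change was -0.19 (SE 0.36, limma adjusted p = 0.816) and turned to 0.06 without Luc 8 and to 0.03 without cFos 12. Jund was at 6.54, 6.26, 5.90 and 3.76 FPKM in cFos clones 2, 4, 8 and 12 and at 9.62, 9.39, 7.85 and 8.70 FPKM in the Luc libraries. All Luc values were above all cFos values, with authors' limits apart in each clone. The Jund log2 fold change was -0.64 (SE 0.18) and did not pass in either fit (limma adjusted p = 0.0788, and 0.0562 with the block). Junb and Jund both lie on chromosome 8, at 87500808 to 87502647 and 73221638 to 73224515.

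**Figure D2:**
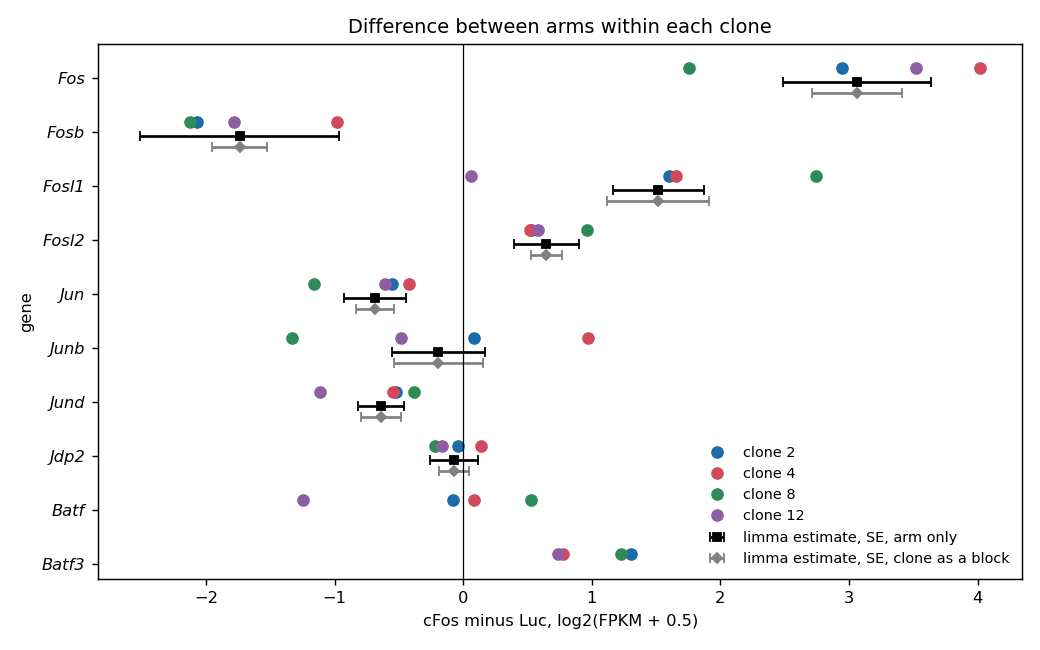
cFos minus Luc on the log2(FPKM + 0.5) scale; coloured points are single clones, black squares the limma estimate with its SE from the model of arm alone, and grey diamonds the same estimate with its SE when the clone is a block. The SE of Fosb is 0.22 with the block and 0.78 without it, that of Fosl1 is 0.39 with the block and 0.35 without it, and Junb has clones on both sides of 0.

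Jdp2 encodes Jun dimerization protein, which pairs with Jun and recruits histone deacetylase. It did not differ detectably between the arms, at 24.7 ± 5.18 FPKM in cFos and 25.9 ± 4.47 in Luc (log2 fold change -0.07, SE 0.19, limma adjusted p = 0.873). It was the 1 member with several transcript entries, 3 that share their last base on chromosome 12 and have first bases at 86940055, 86940366 and 86940968. The entry with the last of these starts held most of the signal, 18.4, 28.7, 21.2 and 25.6 FPKM in cFos clones 2, 4, 8 and 12 and 18.98, 24.8, 23.1 and 27.1 FPKM in the Luc libraries. The entry starting at 86940055 reached 3.41 FPKM in Luc 8, with authors' limits of 2.68 to 4.13, and at most 0.00633 in any other library. In the same Luc 8 library the entry starting at 86940366 was near 0, with an upper limit of 0.0353 FPKM, while cFos 8 had 1.51. Cufflinks splits reads between such overlapping entries by a model, and whether the exchange lies in the RNA or in that split was not tested.

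Batf and Batf3, best known from lymphocytes and dendritic cells, stayed under the filter of 1 FPKM in 4 libraries. Batf3 was at 0.931, 0.587, 1.02 and 0.658 FPKM in cFos clones 2, 4, 8 and 12 and at 0.0795, 0.134, 0.147 and 0.193 FPKM in the Luc libraries. All cFos values were above all Luc values, and the exact two-sided permutation p was 0.0286, the smallest that the 70 arrangements allow. Its mean log2 difference was 1.01 with the pseudocount of 0.5, 1.90 with one of 0.1 and 0.65 with one of 1, and the fold of the FPKM themselves was 3.40 to 11.7 over the clones. It also rose in a limma fit over all 18753 genes with any FPKM, a choice of test made after the values were seen (adjusted p = 0.0120, where 1.53% of genes rose). Among genes with any FPKM, 5.09% had all cFos values above all Luc values. The Luc entries had lower limits of 0, and the authors' limits of the 2 arms were apart in 2 of 4 clones, so the fold of so low a gene is poorly fixed. Exchange of the arms within clones gave an exact p of 0.125, the smallest it can give. Batf was at 0, 0.0992, 0.530 and 1.04 FPKM in cFos clones 2, 4, 8 and 12 and at 0.0291, 0.0657, 0.215 and 3.15 FPKM in the Luc libraries. Clone 12 was highest in both arms, and the arms overlapped (exact two-sided permutation p = 0.8286). In Luc 12 the pan-leukocyte marker Ptprc was at 0.0718 FPKM, its highest in the 8 libraries but near 0.

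Fos, Jdp2 and Batf are neighbours. In mm9 they lie within 235 kb of chromosome 12 (86814851 to 87050037), with 0 other annotated genes lying wholly inside that span. Their listed levels did not move together: Fos rose, Jdp2 did not differ detectably, and Batf was highest in clone 12 of both arms. The Fos level in the cFos arm can include reads from the virus. Whether the chromosomal Fos gene moved with its neighbours was therefore not tested.

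The clones were compared in a limma F test of the clone terms with the arm in the model. Only Fosb among the 8 members passed (F = 36.6, adjusted p = 0.0481), where 0.484% of all genes did. That call lies at the threshold: the adjusted p was 0.0535 with a pseudocount of 1, 0.0504 after scaling libraries to a common median and 0.170 with no filter on low genes. The adjusted p was 0.169 for Fosl2, 0.247 for Fos and 0.265 for both Jun and Jdp2. In the Luc arm, clone 8 had the highest Fos, Fosb, Jun and Junb of the 4 clones and the lowest Fosl1, Fosl2 and Jund. Beside this, 6 of 14 other early-response genes were also highest in Luc 8, namely Egr1, Egr3, Ier2, Nr4a1, Btg2 and Ccn1, whereas 27.03% of all tested genes were. Another 5 of the 14 were at their lowest for that arm in Luc 8, as were 37.1% of all tested genes. Egr1, a serum-induced zinc finger factor, was at 117, 144, 46.6 and 89.1 FPKM in cFos clones 2, 4, 8 and 12 and at 109, 98.6, 234 and 67.2 FPKM in the Luc libraries. In the cFos arm, clone 12 was lowest for 6 of the 8 members, and for 3224 of the 11162 tested genes. In cFos 8, 8 of the 14 were at their lowest for that arm, as were 3264 of the 11162 tested genes, and the part of culture state in these levels was not tested.

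Summed over the family, Fos transcripts outweighed Jun transcripts in all 8 libraries, and by more in each cFos library than in any Luc library. The 4 Fos genes together held 774 ± 223 FPKM in cFos and 175 ± 129 in Luc, and the 3 Jun genes 55.5 ± 16.2 in cFos and 77.0 ± 24.5 in Luc. Their ratio was 10.7, 10.4, 22.1 and 15.8 in cFos clones 2, 4, 8 and 12 and 1.78, 1.62, 3.30 and 1.68 in the Luc libraries. With Fos itself left out, the remaining Fos genes still outweighed the Jun genes in each cFos library, with ratios of 1.27, 1.21, 1.40 and 1.91, and did so in 0 Luc libraries, with ratios of 0.801, 0.960, 0.586 and 0.912. These sums are descriptions and were not tested, and they count transcripts, not proteins or dimers. The sums and ratios with Fos include the transduced gene, and its viral share was not tested.

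Fos made up 80.7 ± 4.75% of the summed FPKM of the 10 genes in cFos and 34.3 ± 17.6% in Luc. The Jun genes made up 6.69 ± 2.08% in cFos and 29.6 ± 5.10% in Luc. The total includes the transduced Fos, so a lower share of another gene in cFos need not mean a lower level. Jdp2, which did not differ detectably in FPKM, made up 3.04 ± 0.979% in cFos and 11.1 ± 5.13% in Luc. Within the Jun genes, Jun held 43.2 ± 9.18% in cFos and 49.6 ± 2.98% in Luc, Junb 46.5 ± 10.5% in cFos and 37.9 ± 3.80% in Luc, and Jund 10.3 ± 1.44% in cFos and 12.5 ± 3.84% in Luc, all with overlapping ranges. In order of level per length, Fos stood first and Fosl2 second in each cFos library, and Jun, Junb and Jdp2 followed in an order that differed between clones. In the Luc arm Fos led in clones 2, 8 and 12 and Fosl2 in clone 4, and Jun averaged 38.4 ± 13.1 FPKM, Junb 29.7 ± 12.3 and Jdp2 25.9 ± 4.47. Jun was above Junb in each of the 4 Luc clones, while Jdp2 was above both in Luc 12 and below both in Luc 2. Fosb, at 15.2 ± 16.9 FPKM in Luc, stood above Jund (8.89 ± 0.798) in Luc clones 2 and 8 and below it in clones 4 and 12.

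**Figure D3:**
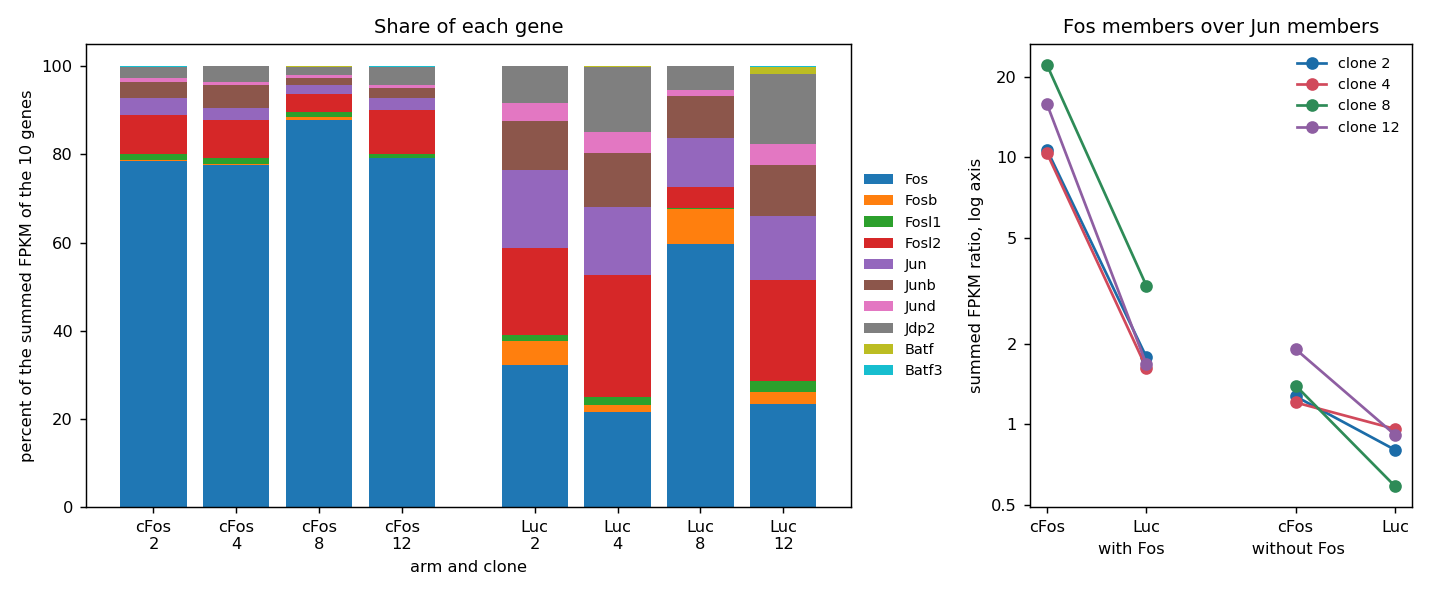
Left, each gene's percent of the summed FPKM of the 10 genes per library (stacked bars from 0 to 100). Right, summed FPKM of the Fos genes over that of the Jun genes on a log axis, with and without Fos; the cFos libraries lie at 10.4 to 22.1 with Fos and 1.21 to 1.91 without it, and the Luc libraries at 1.62 to 3.30 and 0.586 to 0.960.

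The promoters of Fos, Fosb and Jun are shown because these early-response genes carry proximal elements through which AP-1 and CREB proteins are known to act. Fosb and Jun were also lower in cFos in every clone. Jund was lower in every clone too, but its window is not shown and held no match to the motifs named below. The RefSeq table (GRCm38.p6, a build other than mm9 of the files) held windows for 9 of the 10 members, 11 windows in all. It held none for Fosl1, which was therefore not searched. The 250 bases before each start were searched on both strands. The motifs were the AP-1 site TGAGTCA, the cyclic AMP response element TGACGTCA, the Jun-type site TGACATCA, the core TGACG (which lies inside TGACGTCA and was added after the sequences were seen) and the serum response CArG box. Capitals mark matches, and strands are given as in RefSeq.
Fos (chr12:85473640-85473889, plus strand): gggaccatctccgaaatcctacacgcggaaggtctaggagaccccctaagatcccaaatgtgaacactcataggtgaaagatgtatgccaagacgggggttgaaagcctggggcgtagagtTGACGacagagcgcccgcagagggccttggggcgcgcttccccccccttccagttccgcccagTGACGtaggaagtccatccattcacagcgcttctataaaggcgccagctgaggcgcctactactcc
Fosb (chr7:19310046-19310295, minus strand): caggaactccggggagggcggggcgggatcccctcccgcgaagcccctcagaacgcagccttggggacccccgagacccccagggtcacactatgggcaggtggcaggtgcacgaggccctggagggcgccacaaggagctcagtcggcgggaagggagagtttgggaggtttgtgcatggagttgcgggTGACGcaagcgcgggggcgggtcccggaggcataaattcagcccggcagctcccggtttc
Jun (chr4:95052223-95052472, minus strand): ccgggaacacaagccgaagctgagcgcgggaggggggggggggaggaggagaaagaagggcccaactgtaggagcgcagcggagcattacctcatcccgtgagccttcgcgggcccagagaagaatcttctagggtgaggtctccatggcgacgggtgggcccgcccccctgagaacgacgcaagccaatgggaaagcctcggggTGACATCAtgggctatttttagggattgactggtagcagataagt

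The Jun window was the 1 member window with an 8-base match, TGACATCA from 45 to 38 bases before the start, a site found in 2.93% of 32851 promoter windows of the same length. The core TGACG was found in 5 of the 11 member windows, 1 each of Fos, Fosb, Junb, Jdp2 and Batf, and in 17.8% of all windows. In Fos it lay 66 to 62 and 129 to 125 bases before the start, and in Fosb 60 to 56. TGAGTCA, TGACGTCA and the CArG box matched 0 of the 11 windows, and 4.46%, 1.55% and 1.47% of all windows. These are matches of letters, which say nothing of binding in these cells, and the files hold no binding data. Bases farther upstream than the windows were not searched. The search therefore cannot show whether a member has a CArG box or another of these sites outside its window.

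The genes around the family were described from 5 lists of regulators, partners and targets. Of 16 tested ATF, CREB, Maf and other zipper partners, 0 rose and 0 fell and 16 did not pass in limma, with the block as well (3 higher and 0 lower at an unadjusted p under 0.05, against the 9.06% and 11.1% of all genes), and their median log2 fold change was 0.30. The most abundant of them, Atf4, the factor of the amino acid stress response, was at 150 ± 29.9 FPKM in cFos and 120 ± 33.0 in Luc (limma adjusted p = 0.432). Nfe2l1, a relative that pairs with small Maf proteins, was at 85.1 ± 12.7 in cFos and 67.7 ± 11.7 in Luc, and Atf5 at 68.0 ± 12.3 in cFos and 43.5 ± 16.8 in Luc. The stress factor Ddit3 was at 50.6 ± 12.2 in cFos and 36.9 ± 15.7 in Luc, and Nfe2l2, of the oxidative stress response, at 43.5 ± 8.12 in cFos and 33.9 ± 3.11 in Luc. Of 10 genes for the turnover of Fos and Jun mRNA or protein, 0 rose and 0 fell in limma (0 higher and 1 lower at an unadjusted p under 0.05, against 9.06% and 11.1% of all genes). The most abundant, Zfp36l2, was at 82.9 ± 11.0258 in cFos and 71.3 ± 10.957 in Luc. Among the others, Zfp36, which binds AU-rich elements of early mRNAs, was at 38.4, 35.8, 26.8 and 23.0 FPKM in cFos clones 2, 4, 8 and 12 and at 56.3, 21.3, 88.7 and 17.3 FPKM in the Luc libraries, again highest in Luc 8.

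Of 17 tested kinases and factors upstream, Srf fell, 0 rose and 16 did not pass in limma. Over all tested genes, 2.92% rose and 2.62% fell. At an unadjusted limma p under 0.05, 1 of the 17 was higher and 4 lower, against 9.06% and 11.1% of all genes. The median log2 fold change was -0.03. Srf, the serum response factor that drives early-response promoters through CArG boxes, was at 10.8, 10.8, 10.4 and 10.3 FPKM in cFos clones 2, 4, 8 and 12 and at 22.9, 14.2, 17.97 and 18.9 FPKM in the Luc libraries. Its arms did not overlap (log2 fold change -0.76, SE 0.15, limma adjusted p = 0.0218), and the call ended without cFos 2, cFos 4 or cFos 8, with adjusted p up to 0.0698, and without both libraries of clone 8 (0.0828). Dusp1, a phosphatase of the MAP kinases, was at 51.1 ± 14.0 in cFos and 28.3 ± 6.37 in Luc, and rose with the block alone (limma adjusted p = 0.0848, and 0.0406 with the block).

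Of 17 tested genes described in the literature as AP-1 targets, 3 rose, 0 fell and 14 did not pass in limma. Over all tested genes, 2.92% rose and 2.62% fell. At an unadjusted limma p under 0.05, 5 of the 17 were higher and 1 lower, against 9.06% and 11.1% of all genes. The median log2 fold change was 0.52. In the blocked model 5 rose (4.51% of all genes) and 1 fell (4.28%). Tgfb1, the growth factor, was at 29.0 ± 3.53 FPKM in cFos and 10.97 ± 0.735 in Luc (log2 fold change 1.36, SE 0.12, limma adjusted p = 8.46e-04). Plaur, the urokinase receptor, rose to 26.95 ± 4.62 in cFos, against 9.90 ± 3.75 in Luc (adjusted p = 0.0165, and up to 0.0569 without cFos 2 or cFos 4). Hbegf, a ligand of the EGF receptor, rose to 11.1 ± 3.504 in cFos, against 3.72 ± 1.91 in Luc, a call that held without Luc 12 but ended without any 1 of the other 7 libraries (up to 0.114). The collagenase gene Mmp13, a textbook target of AP-1 in bone, was at 6.34, 8.71, 0.529 and 14.9 FPKM in cFos clones 2, 4, 8 and 12 and at 16.7, 8.53, 23.7 and 19.5 FPKM in the Luc libraries, and did not pass (adjusted p = 0.283). The other matrix metalloproteinase genes of the list were below the filter, were not tested, and differed in direction. Mmp3 was at 2.34 ± 1.64 FPKM in cFos and 0.183 ± 0.104 in Luc, and Mmp10 at 0.435 ± 0.273 in cFos and 0.0244 ± 0.0317 in Luc. Mmp9 was at 0.246 ± 0.261 in cFos and 0.982 ± 0.570 in Luc. Without both libraries of clone 8, 2 of the 17 rose, Tgfb1 and Plaur, where 2.05% of all genes rose.

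Of 14 other early-response genes, 2 rose, 1 fell and 11 did not pass in limma, where 2.92% of all tested genes rose and 2.62% fell. At an unadjusted limma p under 0.05, 2 of the 14 were higher and 3 lower, against 9.06% and 11.1% of all genes. Their median log2 fold change was -0.33. The zinc finger factor Klf4 was at 21.9, 13.5, 35.0 and 23.0 FPKM in cFos clones 2, 4, 8 and 12 and at 8.14, 3.23, 2.81 and 5.65 FPKM in the Luc libraries (log2 fold change 2.16, SE 0.36, limma adjusted p = 0.0108). Its relative Klf2 fell to 3.64 ± 1.15 in cFos, against 16.6 ± 2.91 in Luc (adjusted p = 0.00180), and Klf6 rose to 74.2 ± 12.6 in cFos, against 38.1 ± 12.1 in Luc (adjusted p = 0.0381). The calls of Klf4 and Klf2 held without each of the 8 libraries, and that of Klf6 ended without cFos 2, cFos 4, cFos 12, Luc 4, Luc 8 or Luc 12, with adjusted p up to 0.120. Klf6 did not pass without both libraries of clone 8 either (adjusted p = 0.0576).

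**Figure D4:**
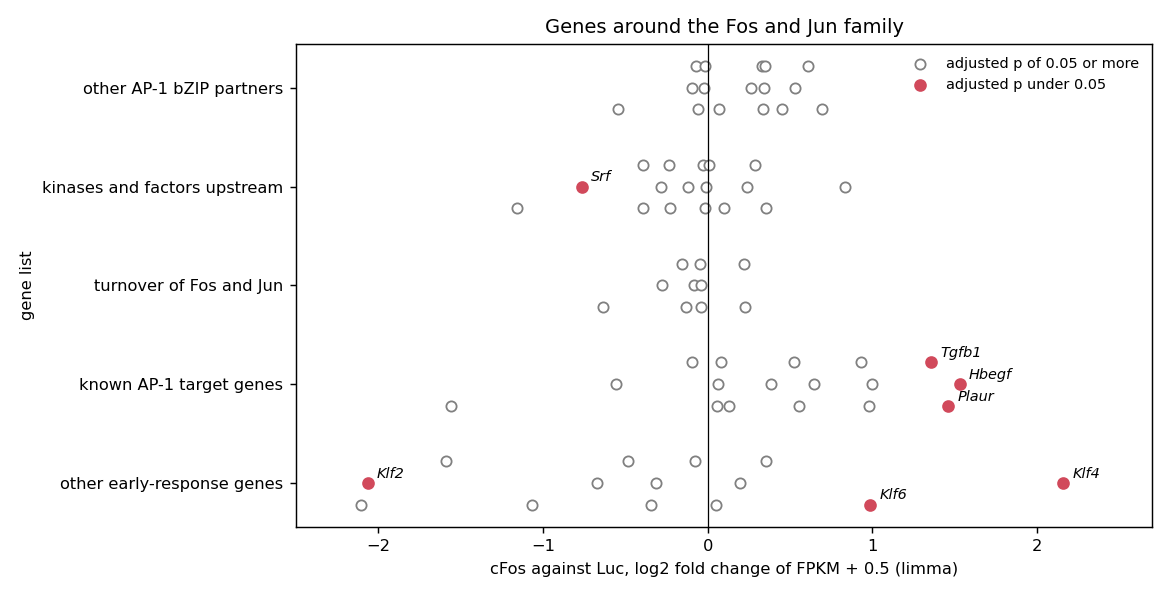
limma log2 fold change of cFos against Luc (horizontal axis) for the tested genes of 5 lists (vertical axis, spread within a list for legibility only); filled points passed an adjusted p under 0.05. The called genes are Srf, Plaur, Hbegf, Tgfb1, Klf2, Klf4 and Klf6.

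The genes most alike in pattern to 3 of the members were found over the 8 libraries among 952 genes of at least 10 FPKM and at least 0.5 SD on the log2 scale, by the root mean square difference of centred log2 values. Nearest to Fos were 3 collagen genes, Col5a3 (0.466), Col18a1 (0.679) and Col15a1 (0.689), where the median gene was 1.90 away. Col5a3, a minor fibrillar collagen chain, was at 47.0, 65.9, 56.8 and 27.7 FPKM in cFos clones 2, 4, 8 and 12 and at 6.03, 6.05, 17.9 and 3.18 FPKM in the Luc libraries, highest in clone 8 within Luc as Fos was. Nearest to Fosl1 were Card19 (0.157), Plec (0.207), which encodes the cytoskeletal linker plectin, and Ccdc85b (0.225), with a median distance of 1.18. Plec was at 70.6, 89.7, 87.3 and 55.6 FPKM in cFos clones 2, 4, 8 and 12 and at 27.5, 35.0, 16.1 and 49.2 FPKM in the Luc libraries, with the smallest difference in clone 12, as for Fosl1. Nearest to Jun were Il11ra1 (0.167), which encodes an interleukin receptor chain, the complement protease gene C1ra (0.170) and Mtss2 (0.180), with a median of 0.919. The genes were picked for likeness to these same values, so the clone patterns they share with Fos and Fosl1 follow from the choice. The median distances depend on the member's own SD on the log2 scale, 1.88 for Fos, 0.973 for Fosl1 and 0.516 for Jun. The distances describe likeness over 8 libraries that share the 2 arms and 4 clones, and no test was made.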

How the data were processed

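The 8 libraries, 4 per arm, are of polyadenylated RNA (TruSeq), per the labels' protocols. The submitters' processing notes name the tools CASAVA 1.8.2, TopHat and Cufflinks and the mouse build mm9; their options and the remaining versions were not given in the sources used. Per the file headers, the deposited tables hold FPKM with confidence limits for each RefSeq transcript, and the coverage signal (mean depth per base), from which depth was taken as coverage times length. No scaling between libraries is recorded. Read counts were not used here, so no counting interval was computed.

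Of 30769 entries, 30227 were named from a RefSeq table and 180 from GENCODE M21 metadata. Values were summed per symbol, and 3 genes with a failed status were left out. Arms were compared with limma 3.58.1 under R 4.3.3 (lmFit, eBayes with trend) on log2(FPKM + 0.5), for genes at 1 FPKM or more in at least 4 libraries, Benjamini-Hochberg adjusted over all genes, two-sided, at 0.05. This scale understates changes of low genes. The model held the arm; the clone was added as a block. The clone numbers pair the libraries, since both come from 1 line (correlation of deviations from arm means 0.174, 0.593, 0.349 and 0.437 in clones 2, 4, 8 and 12). Genes below the filter had exact permutation tests. The code was tested on simulated data. Python 3.11.15, pandas 2.3.3, numpy 2.4.6 and matplotlib 3.10.9 were used.

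The members and lists were chosen with earlier results of these data known. All members are named, with up to 5 genes of each list (those called, else the most abundant) and the 3 genes nearest in pattern to Fos, Fosl1 and Jun. Dusp1, Mmp13, Mmp3, Mmp9, Mmp10 and Egr1 were added after their values were seen. Alternatives were pseudocounts of 0.1 and 1, no filter, 5 FPKM, median scaling, the largest entry alone, no trend, the block, each library left out, and both libraries of clone 8 left out.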

Additional observations from a re-analysis of the deposited data

Results flagged for a closer look

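Each member was examined for a library far from the other 3 of its arm by Dixon's criterion, in 20 groups of 4. The criterion was applied to FPKM and not to the log2 values of the fits. Chance flags about 1 in 20 groups only where values are normally distributed, which was not tested, so the 2 flags are descriptions. Fos in Luc 8, at 302 FPKM, lay apart from the other Luc libraries, which were at 41.1 to 76.2 FPKM, with a gap of 0.865 of the group's range. Batf in Luc 12, at 3.15 FPKM, lay apart from the other Luc libraries, at 0.0291 to 0.215 FPKM, with a gap of 0.941 of the range.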

How the results depend on the processing

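Of the 8 tested members, 2 rose, the transduced Fos and Fosl1. With the clone as a replicate block the number was also 2, but these were Fos and Fosl2, and Fosl1 did not pass (limma adjusted p = 0.0663). With no filter on low genes the number was 1, Batf3, which is then tested. It was 1 with a minimum of 5 FPKM, which takes out Fosb and Fosl1, and 1 without both libraries of clone 8. It ranged from 0 to 2 when single libraries were left out. No member fell, except 2 with the clone as a replicate block and 1 with the block and without clone 8; without single libraries the number was 0. With 1 library of each arm per clone, the block cannot change a log2 fold change, so a direction kept under it is no check. Over all genes 503 rose and 478 fell with the block, against 326 and 293 without. By the clone test 1 member passed, and 0 with a pseudocount of 1, no filter, 5 FPKM, median scaling or the largest entry alone. Batf3 had an exact p of 0.0286 in each setting that left out a library, the smallest that the 35 arrangements left then allow (log2 difference 0.93 to 1.09; 1.90 and 0.65 with pseudocounts of 0.1 and 1), and 0.125 when arms were exchanged within clones (log2 difference 1.01). Batf, at -0.18, changed sign without cFos 2 (0.07) and without Luc 12 (0.47), with a range of -0.48 to 0.47 over single libraries left out. Junb, at -0.19, changed sign without cFos 12 (0.03), without Luc 8 (0.060) and without clone 8 in either fit (0.19), and Jdp2, at -0.07, without cFos 2 (0.047). With single libraries left out, Junb ranged from -0.49 to 0.060 and Jdp2 from -0.20 to 0.047. The direction of Fos, Fosb, Fosl1, Fosl2, Jun and Jund was kept in each setting run. Where a call was lost with fewer libraries, fewer samples were fitted; the cause was not tested otherwise. Median scaling moved the median of all genes by under 0.1 on the log2 scale. As to depth, the authors' lower limit was 0 for Batf3 in each Luc library.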
